A study of Rattus norvegicus with 10 samples.

Results

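The genes for the factors that start and extend protein chains on cytosolic ribosomes were followed in the fetal rat heart under maternal hyperglycemia. Members were taken by symbol from the expression table, as every gene whose symbol starts with Eif or Eef. The Eif2ak kinases, which signal to a factor but are not factors, and Eif2s3y, the Y-linked copy of Eif2s3, were left out by the same rule. Of 64 such symbols, 63 had a mean of at least 0.1 FPKM (fragments counted relative to gene length and library size) over the 10 libraries. These 63 stood among 14542 genes that passed the same filter and 18025 listed. The symbols also cover genes that are not factors in the strict sense, namely the eIF4E-binding repressors, the kinase Eef2k and the methyltransferases of elongation factors, and each of these groups is described on its own.

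The hearts came from wild-type Sprague-Dawley fetuses at embryonic day 19.5 (E19.5). Dams were 3 months old and were mated with normoglycemic males. HG dams received streptozotocin (STZ), a toxin of the insulin-producing beta cells, in citric acid buffer by intraperitoneal injection on 3 consecutive days, and CON dams received the buffer alone. Glucose was measured 7 days after injection, and STZ-treated dams counted as diabetic above 16 mM without fasting. Each group held 5 libraries, labelled as heart. The methods of the study name heart samples too, while a figure legend names isolated fetal cardiomyocytes for this comparison. The labels were followed here. The labels do not say which litter or which fetal sex a library came from, or whether any shared a dam. The methods speak of pooled RNA, while the table holds 1 column for each of 10 libraries. The p-values given here therefore measure the spread between these libraries, which may be partly technical.

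Initiation brings a small ribosomal subunit to the start codon. eIF2 carries the initiator tRNA and is recharged by its exchange factor eIF2B, eIF3 and eIF1 and eIF1A organise the scanning complex, and the eIF4 proteins bind the mRNA cap and unwind the leader, until eIF5 and eIF5B release the factors and join the large subunit. In elongation eEF1A delivers each aminoacyl-tRNA, eEF1B recharges eEF1A, and eEF2 moves the ribosome by a codon. In muscle, heart and neurons, eEF1A comes from a pair of closely related genes, Eef1a1, which nearly all cells use, and Eef1a2, which is restricted to these tissues and takes a growing part as they mature.

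Libraries held 17639895 to 18240006 reads on genes in CON and 16672876 to 19109844 in HG, as recovered from the steps between FPKM values. The tissue label was borne out by 7 cardiomyocyte markers, whose FPKM summed to 25673 to 26930 in CON and 21792 to 25665 in HG. The median log2 fold change (HG minus CON) of all tested genes was 0.09, so that a change of this size is the shift of the whole table. CON library 3 stood apart in 5 hepatocyte markers, with 0.0552, 2.93, 34.9, 2.09 and 1.38 FPKM of Alb, the albumin gene, across the CON libraries. Without that library, 23 translation factor genes were higher in HG and 3 were lower, against 26 and 3 with it. Over all tested genes the counts also fell, to 3617 higher and 1503 lower without it, from 4127 and 1709 with it.

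Most members were among the well expressed genes of the heart. Their mean FPKM ran from 0.187 to 3095 with a median of 51.5, against a median of 7.26 over all tested genes, and 54 of 63 were above 10 FPKM. Eef1a1 ranked 7 and Eef2 ranked 45 of all tested genes by mean FPKM. Together the members held 1.89% to 2.06% of all FPKM in CON and 2.00% to 2.14% in HG, and the ranges overlapped. Replicates lay close together, with a median coefficient of variation over members of 4.59% in CON and 5.09% in HG.

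A gene was called when its adjusted p was under 0.05 with limma (moderated test on log2(FPKM + 0.1), Benjamini-Hochberg adjustment over all 14542 genes). Of the 63 members, 26 were called higher in HG, which is 41.3%, where 28.4% of all tested genes were called higher. Only 3 were called lower, 4.76% of the members, against 11.8% of all genes. The remaining 34 were not called. The median log2 fold change of the members was 0.10, beside 0.09 for all genes, and 52 of 63 values were above 0.

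The size of these counts depended on how libraries were scaled. With median-of-ratios factors, which set the median change near 0, 10 members were called higher (15.9%, background 15.6%) and 6 lower (9.52%, background 17.5%), and 33 values were above 0. All 10 higher and 3 of the 6 lower were also called with FPKM as deposited. Quantile normalization gave 20 higher (31.7%, background 18.0%) and 3 lower (4.76%, background 15.9%), and scaling without hemoglobin genes gave 30 higher (47.6%, background 31.8%) and 2 lower (3.17%, background 10.6%). The members' share of higher calls was thus above the background in 3 of these 4 scalings and close to it with median-of-ratios factors. The background was not matched for level, with a median of 51.5 FPKM for members and 7.26 for all tested genes. What part this had in the calls was not tested. Changes were small: the median absolute log2 fold change was 0.25 among called members and 0.31 among all called genes. Of the 29 called members, 28 changed by less than 0.5 on the log2 scale, and 1 passed the threshold for a differentially expressed gene (DEG, log2 fold change above 1 or under -1), which 1.94% of all tested genes passed. That gene was Eef1a2. The 5 HG values lay above the 5 CON values without overlap for 17 members (27.0%, background 19.3%) and below them for 3 (4.76%, background 8.12%).

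**Figure D1:**
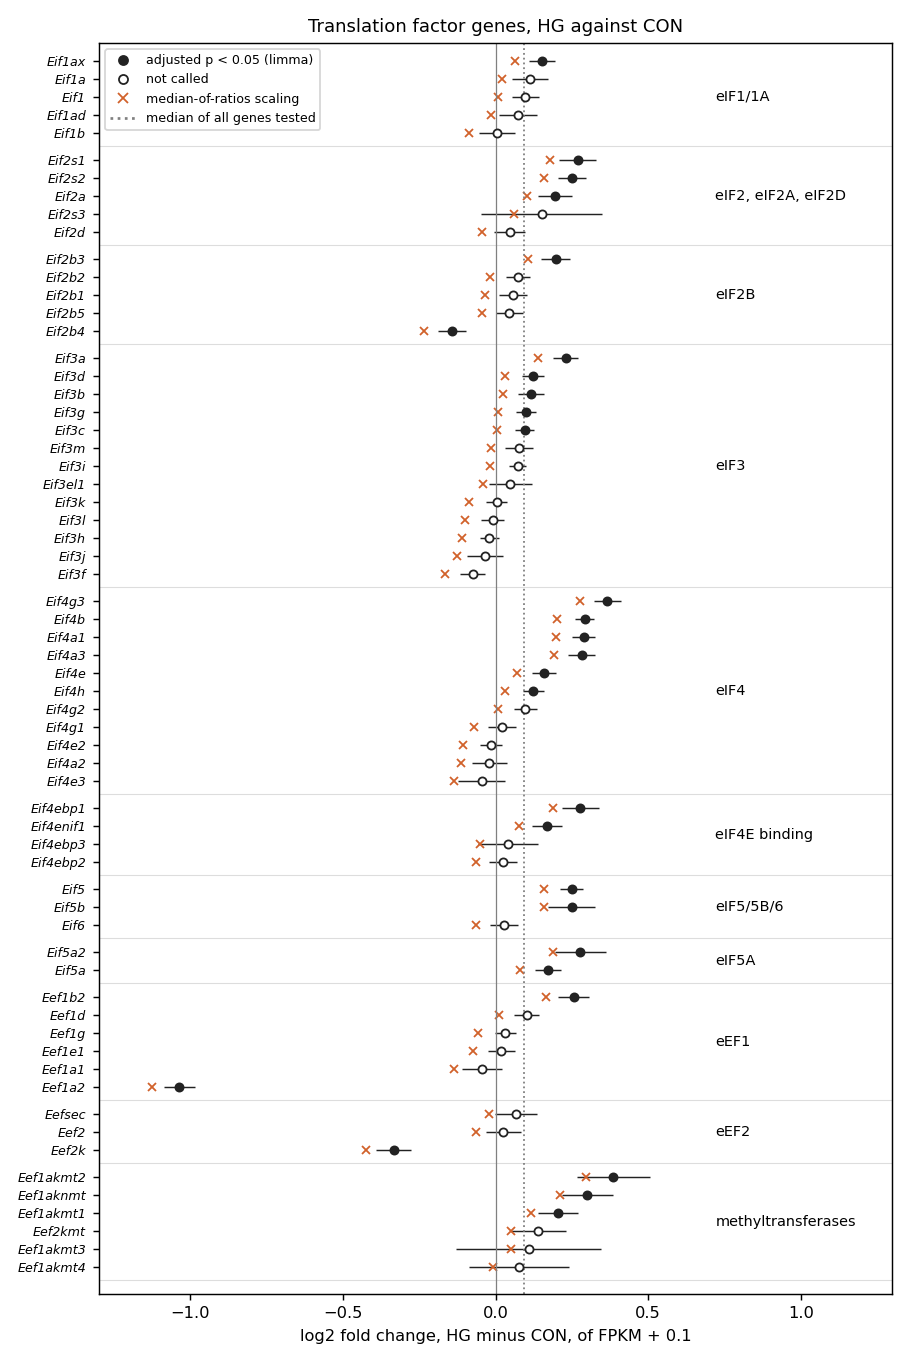
Log2 fold change (HG minus CON) of log2(FPKM + 0.1) for the 63 translation factor genes, grouped by role; bars are 1 standard error from limma, filled circles were called and open ones were not. Crosses give the change with median-of-ratios factors and the dotted line the median of all tested genes (0.09); Eef1a2 stands alone at -1.04 while most others lie between -0.2 and 0.4.

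The eEF1 complex held both the largest change and the most abundant member. Eef1a2, the tissue-restricted form of the tRNA carrier, fell to 0.488 of its CON level. Its FPKM in the CON libraries 1 to 5 was 283, 255, 271, 256 and 261, and in the HG libraries 124, 137, 135, 137 and 115. Every HG library lay below every CON library, with 265 ± 11.7 FPKM in CON and 129.6 ± 9.61 in HG (mean ± SD, n = 5 in each group here and for every value of this form). The log2 fold change was -1.04 (standard error, SE, of 0.0522, limma adjusted p 2.00e-07) and -1.13 with median-of-ratios factors. It stood close to the DEG threshold and crossed to the other side of it without HG library 5 (-0.99) and with quantile normalization (-0.999), with an adjusted p still under 0.05 in each.

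Eef1a1, the general form, did not pass the test. Its FPKM was 3233, 2787, 3302, 3219 and 3169.9 in CON and 2962, 3269.6, 3200.5, 3149.6 and 2658 in HG. The groups overlapped, and the lowest values were those of CON library 2 and HG library 5. The log2 fold change was -0.05 (95% interval -0.19 to 0.10, limma adjusted p 0.620). Under quantile normalization its sign turned to 0.15 and it passed the test (adjusted p 0.0185, with 0.0185 to 0.972 over all 21 alternatives). Eef1a1 has near-identical copies in the genome, and how reads were divided among them was not tested.

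The share of Eef1a2 in the sum of Eef1a1 and Eef1a2 is a ratio within each library and so does not depend on library scaling by a factor. It was 8.05, 8.396, 7.59, 7.37 and 7.61% in the CON libraries and 4.03, 4.02, 4.04, 4.17 and 4.15% in the HG libraries. The HG values were all lower and lay closer together, from 4.02% to 4.17%, than the CON values, from 7.37% to 8.396%. The mean share went from 7.80 ± 0.413% to 4.08 ± 0.0717%, a difference of -3.72 percentage points (p = 0.00794 in a two-sided exact permutation test, the lowest value that 5 against 5 libraries allow).

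**Figure D2:**
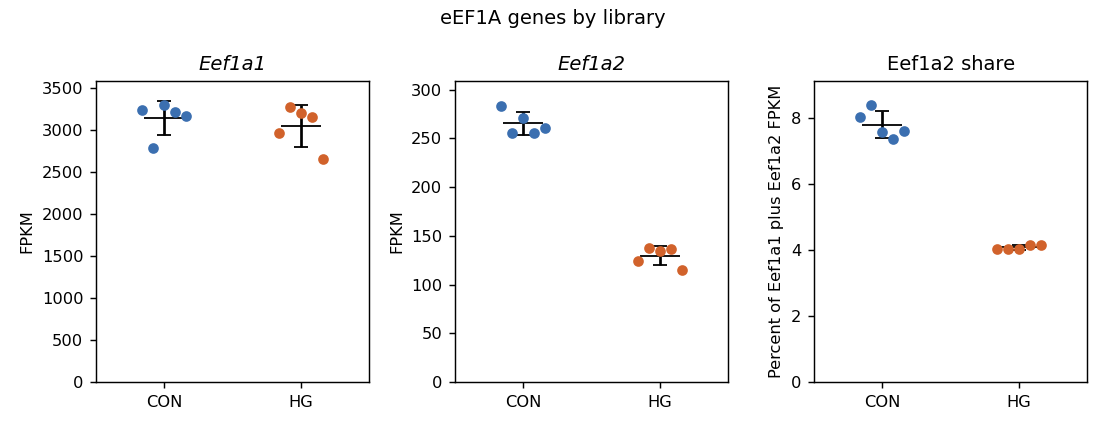
FPKM of Eef1a1 (left) and Eef1a2 (middle) and the percent share of Eef1a2 in their sum (right) in each of 5 CON and 5 HG libraries; points are libraries, bars mean ± SD. Eef1a1 overlapped between groups, while Eef1a2 (255 or more in CON, 137 or less in HG) and its share (7.37% or more in CON, 4.17% or less in HG) did not.

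Several cell type markers differed between the groups beside Eef1a2. Of the 7 cardiomyocyte markers, 5 were called lower in HG, 6 with median-of-ratios factors and 3 with quantile normalization. Backgrounds were 11.8%, 17.5% and 15.9% of all tested genes. Quantile normalization gives equal ranks equal values, so it can hide a fall in very abundant genes such as Myl2, which lost its call there. Nppa, the atrial natriuretic peptide gene, was called higher. Myh6, the alpha myosin heavy chain gene, had the largest fall, with a log2 change of -1.03, close to that of Eef1a2. Ryr2, Myl2, Myh7 and Tnnt2 fell less, by log2 changes of -0.62, -0.41, -0.31 and -0.29. Actc1 was at -0.16 and not called, and the median of the 7 markers was -0.31. Neuron markers were at a trace level, with sums over 8 genes of 4.63 to 5.72 FPKM in CON and 3.90 to 5.06 in HG, 2 called lower and 1 higher. Those of skeletal muscle summed to 4.43 to 7.39 FPKM in CON and 6.57 to 9.28 in HG, with Myod1 at 0.188 FPKM or less in every library. Of the 4 that passed the filter, 1 was called higher and 0 lower. It was Myog, at a mean of 0.409 FPKM (log2 fold change 0.76, limma adjusted p 0.0237).

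Markers of blood and other cells are given for the same reason. Of 11 red cell markers, 8 were called lower and 2, the embryonic globin genes Hbz and Hbe1, higher, with sums of 10559 to 19964 FPKM in CON and 8328 to 11672 in HG. Hemoglobin genes held 2.27% to 4.21% of all FPKM in CON and 1.86% to 2.56% in HG. Of 5 hepatocyte markers, 4 were called lower, and 2 without CON library 3, with sums of 3.12 to 75.7 FPKM in CON and 0.852 to 2.40 in HG. Fibroblast markers summed to 1127 to 1282 FPKM in CON and 1028 to 1157 in HG, with 2 of 5 higher and 2 lower. Those of macrophages summed to 9.75 to 12.9 and 11.6 to 14.6 FPKM, with 2 of 5 higher and 1 lower, and of 5 endothelial markers 0 were called by limma and 0 had an unadjusted p under 0.05 (1 was called lower with median-of-ratios factors). The part of any of these cell types in the change of Eef1a2 or of the other members was not tested, and in bulk tissue fewer cells of a type and less RNA per cell cannot be told apart.

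The exchange factor of eEF1A changed little, apart from its beta subunit. Eef1b2 measured 167, 184, 161, 156 and 151 FPKM in CON and 196, 186, 204, 198 and 194 in HG. It was higher in HG without overlap, by 0.26 on the log2 scale (SE 0.0503, limma adjusted p 0.00170). Eef1g, the gamma subunit and among the most abundant members, was at 716 ± 18.1 FPKM in CON and 733 ± 17.4 in HG and was not called. It was called higher with quantile normalization (log2 fold change 0.11, limma adjusted p 0.0112). Eef1d, the delta subunit, was 70.6 ± 1.10 and 75.9 ± 4.67 FPKM and missed the threshold (limma adjusted p 0.0664), although its groups did not overlap. Eef1e1, whose product sits in the multisynthetase complex, was not called either. Of the 6 eEF1 genes, 1 was called higher and 1 lower (16.7% each), with median-of-ratios factors too. Backgrounds were 28.4% higher and 11.8% lower as deposited, and 15.6% and 17.5% with median-of-ratios factors.

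The upstream sequences of the eEF1A pair are shown because their levels differed so much and moved apart. Each is the 250 bases before the start of the gene as RefSeq annotates it on GRCr8, written in the direction of transcription (both genes on the minus strand), with TATAA in capitals.
Eef1a1, chr8:88225070-88225319: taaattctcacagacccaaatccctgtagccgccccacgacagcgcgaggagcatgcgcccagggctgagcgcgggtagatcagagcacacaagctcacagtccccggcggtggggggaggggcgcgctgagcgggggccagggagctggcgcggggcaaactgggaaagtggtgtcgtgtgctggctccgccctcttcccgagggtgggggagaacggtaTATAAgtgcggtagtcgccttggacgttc
Eef1a2, chr3:188652634-188652883: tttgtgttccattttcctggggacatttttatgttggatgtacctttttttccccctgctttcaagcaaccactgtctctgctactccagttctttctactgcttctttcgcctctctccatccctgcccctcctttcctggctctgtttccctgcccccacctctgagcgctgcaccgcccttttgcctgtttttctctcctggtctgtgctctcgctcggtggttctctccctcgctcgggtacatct
The Eef1a1 window held TATAA 29 bases before the start and was 65.6% G and C. The Eef1a2 window had none of the 3 motifs searched and was 52.8% G and C. A match is a run of letters only, and binding was not measured.

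The gene for eEF2 was not called, while that of its kinase fell. Eef2, the translocase gene, read 989, 926, 1049, 992 and 995 FPKM in CON and 1004, 1122, 1011, 1024 and 888 in HG, with overlapping groups and a log2 change of 0.03 (95% interval -0.10 to 0.15) that was not called. Its sign turned with median-of-ratios factors (-0.07, not called). Eef2k encodes the kinase that phosphorylates eEF2 and slows elongation. Its values were 31.7, 35.5, 36.9, 39.8 and 33.1 FPKM in CON and 26.5, 29.5, 27.5, 28.3 and 28.1 in HG. All HG libraries were below all CON libraries, with a log2 change of -0.33 (SE 0.0579, limma adjusted p 7.69e-04) and -0.42 with median-of-ratios factors. Eefsec, the selenocysteine elongation factor, was at 8.60 ± 0.698 and 9.02 ± 0.643 FPKM and was not called.

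Because Eef2k was the only other member with a fall above 0.3 on the log2 scale, its upstream window (GRCr8, plus strand, 62.0% G and C) is given too, with a CACGTG box in capitals 77 bases before the start.
Eef2k, chr1:184824170-184824419: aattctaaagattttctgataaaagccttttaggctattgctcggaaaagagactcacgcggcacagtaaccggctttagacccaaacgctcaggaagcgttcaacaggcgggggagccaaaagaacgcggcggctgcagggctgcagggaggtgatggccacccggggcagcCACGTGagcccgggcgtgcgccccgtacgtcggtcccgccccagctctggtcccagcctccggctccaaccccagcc

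Methyltransferases that modify eEF1A and eEF2 were at a low level, 0.187 to 7.15 FPKM on average. Of 6, 3 were called, each of them higher, and these calls were lost with median-of-ratios factors. Eef1akmt2 had 5.48 ± 1.08 FPKM in CON and 7.12 ± 0.794 in HG (limma adjusted p 0.0222). Eef1aknmt, which methylates the start of eEF1A, had 6.41 ± 0.783 and 7.89 ± 0.596 FPKM (limma adjusted p 0.0125). Eef1akmt1 had 4.58 ± 0.366 and 5.28 ± 0.224 FPKM (limma adjusted p 0.0273). In all 3 the groups overlapped. The call of Eef1akmt2 was also lost with a replicate block (limma adjusted p 0.0556). That of Eef1akmt1 was lost with voom on recovered reads (limma adjusted p 0.0717). Eef1akmt3 and Eef1akmt4 were the members just above the filter, with means of 0.187 and 1.37 FPKM, and neither was called. Eef1akmt3 rested on 8.5 reads per library on average, so its fold change is imprecise. Just below the filter lay Eif4e1b, an oocyte form of the cap-binding protein, at 0 in 8 libraries and at 0.0167 and 0.0184 FPKM in HG libraries 2 and 5.

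The eIF4 genes held the clearest rises. Of 11 genes for cap binding, helicase and scaffold, 6 were called, all higher (54.5%, background 28.4%). With median-of-ratios factors 4 were higher (36.4%, background 15.6%) and 1, Eif4e2, was lower (9.09%, background 17.5%). Eif4a1, the main helicase that unwinds mRNA leaders, had 279.6, 295, 285, 286 and 277 FPKM in CON and 356, 325, 341, 362 and 354 in HG. The lowest HG value was above the highest CON value, with a log2 change of 0.29 (SE 0.0366, limma adjusted p 9.24e-05). Eif4a2, its close relative, read 156, 144, 128, 137 and 142 FPKM in CON and 128, 141, 139, 135 and 155 in HG. Its groups overlapped fully and its log2 fold change was -0.02 (95% interval -0.15 to 0.10), not called. Eif4a1 resembles other copies in the genome, and the division of reads among them was not tested.

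Eif4b, which stimulates the helicase, had the smallest adjusted p of all members that rose. Its FPKM was 95.6, 95.7, 94.2, 98.3 and 94.6 in CON and 112, 119, 118, 121 and 115 in HG, a log2 change of 0.29 (SE 0.0312, limma adjusted p 2.72e-05). Eif4h, a related cofactor, rose by 0.12 (limma adjusted p 0.0142), a call that was lost with median-of-ratios factors. Eif4a3, the helicase of the exon junction complex, measured 82.1, 80.3, 84.2, 88.5 and 89.3 FPKM in CON and 109, 101, 103, 108 and 96.1 in HG. Its groups were apart as well, by 0.28 on the log2 scale (SE 0.0440, limma adjusted p 3.80e-04).

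Among the scaffold genes, the least abundant changed most. Eif4g3 had 10.8, 11.3, 11.6, 10.9 and 11.7 FPKM in CON and 14.8, 13.8, 14.6, 14.1 and 15.2 in HG, without overlap, a log2 change of 0.37 (SE 0.0441, limma adjusted p 6.66e-05). Eif4g1, the canonical scaffold, stood at 80.5 ± 4.20 and 81.6 ± 4.09 FPKM and was not called. Eif4g2, a scaffold form that does not bind eIF4E, stood at 167 ± 6.83 and 179 ± 6.60 FPKM and just missed the threshold (limma adjusted p 0.0579).

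The cap-binding genes differed among themselves. Eif4e, the cap-binding protein of general initiation, had 41.3, 40.2, 39.1, 39.0 and 38.8 FPKM in CON and 46.0, 41.3, 44.1, 46.4 and 44.0 in HG. The groups did not overlap and the log2 fold change was 0.16 (SE 0.0386, limma adjusted p 0.00619), but 0.07 and not called with median-of-ratios factors. Eif4e2, a cap-binding form that represses translation, was 49.0 ± 1.47 and 48.5 ± 1.77 FPKM, with a log2 change of -0.02, and it was called lower with median-of-ratios factors only (-0.11). Eif4e3 was 7.33 ± 0.781 and 7.09 ± 0.484 FPKM and not called.

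**Figure D3:**
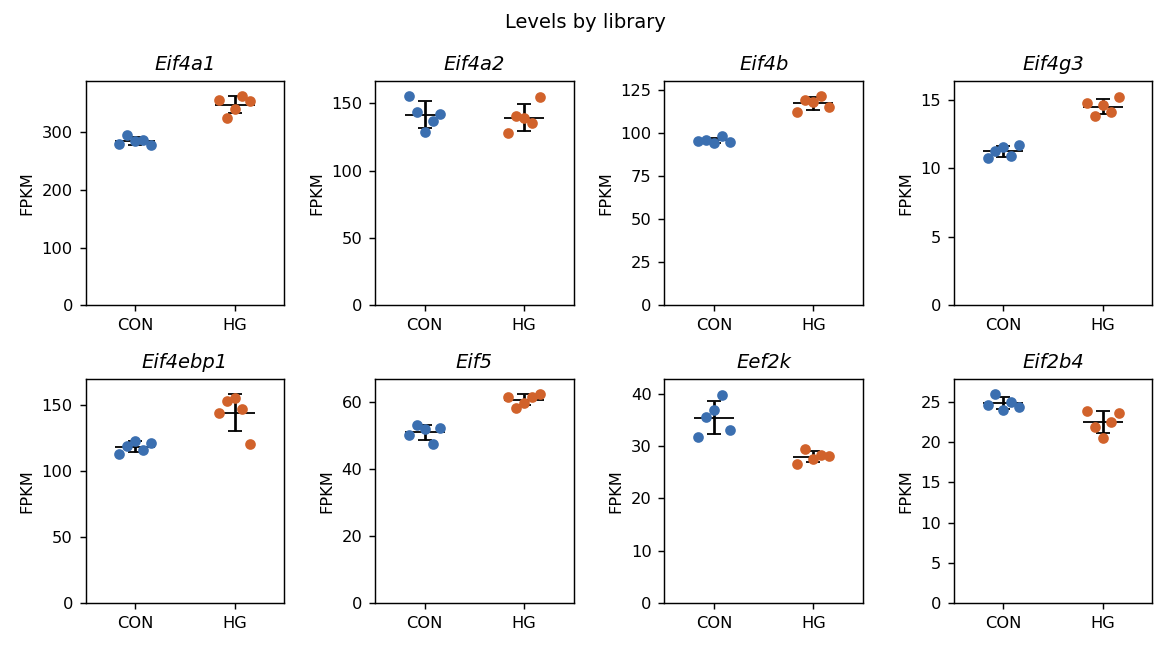
FPKM of 8 translation factor genes in each of 5 CON and 5 HG libraries, with axes from 0; points are libraries and bars mean ± SD. Eif4a1, Eif4b, Eif4g3 and Eif5 lay higher in every HG library than in any CON library, Eef2k and Eif2b4 lower, and Eif4a2 and Eif4ebp1 overlapped.

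The window upstream of Eif4a1 (GRCr8, minus strand, 61.6% G and C) is printed beside those above, as it is the helicase gene of the pair that rose, with TATAA in capitals 30 bases before the start.
Eif4a1, chr10:54888603-54888852: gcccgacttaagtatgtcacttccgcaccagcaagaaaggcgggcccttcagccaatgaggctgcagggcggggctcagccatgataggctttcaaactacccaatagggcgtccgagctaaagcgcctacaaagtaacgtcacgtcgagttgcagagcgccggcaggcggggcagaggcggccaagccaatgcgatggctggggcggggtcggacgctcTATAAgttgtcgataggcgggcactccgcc

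The repressors that bind eIF4E went in the same direction as the factor or did not pass the test. Eif4ebp1, the most abundant of them, is held off eIF4E when mTORC1 phosphorylates it. It read 113, 119, 123, 116 and 122 FPKM in CON and 145, 154, 156, 148 and 121 in HG. HG library 5 lay within the CON range and the other 4 lay above it, and the log2 fold change was 0.28 (SE 0.0614, limma adjusted p 0.00357). Eif4ebp2 was 40.0 ± 0.936 and 40.8 ± 2.74 FPKM and Eif4ebp3 was 10.7 ± 1.05 and 11.1 ± 1.58 FPKM, neither called. Eif4enif1, which carries eIF4E into the nucleus, rose by 0.17 (limma adjusted p 0.0178) and was not called with median-of-ratios factors.

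For the other paralogues, 12 further shares within gene groups were compared with the two-sided exact permutation test, whose smallest p is 0.00794. The share of Eif4a1 in Eif4a1 plus Eif4a2 was 64.2 to 69.0% in CON and 69.6 to 73.6% in HG, higher by 4.56 percentage points on average (p = 0.00794, 0.0190 after Benjamini-Hochberg adjustment over the 12 shares, exact permutation test). Eif4g3 made up 4.10 to 4.55% of the scaffold FPKM in CON and 4.96 to 5.61% in HG, higher by 0.935 points with the same p. Among the 3 cap-binding genes, the share of Eif4e was higher by 3.06 points, 40.5 to 42.5% in CON and 42.9 to 46.2% in HG, and that of Eif4e2 had a difference of -2.52 points, both with this smallest p. Those 4 shares did not overlap between groups.

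Within the repressors, Eif4ebp2 had a share of 23.1 to 25.1% in CON and 18.7 to 21.9% in HG, again without overlap. The share of Eif4ebp1 was 70.0 ± 1.14% and 73.5 ± 1.83%, with overlapping groups (p = 0.0159, 0.0317 adjusted, exact permutation test). The remaining 6 shares had exact permutation p-values from 0.183 to 0.643. Among them, Eif5a2 made up 0.919% of eIF5A FPKM in CON and 0.993% in HG, and Eif1b 13.6% and 12.9% of Eif1 plus Eif1b. Shares of 1 group sum to the whole, so that they are not independent of each other.

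**Figure D4:**
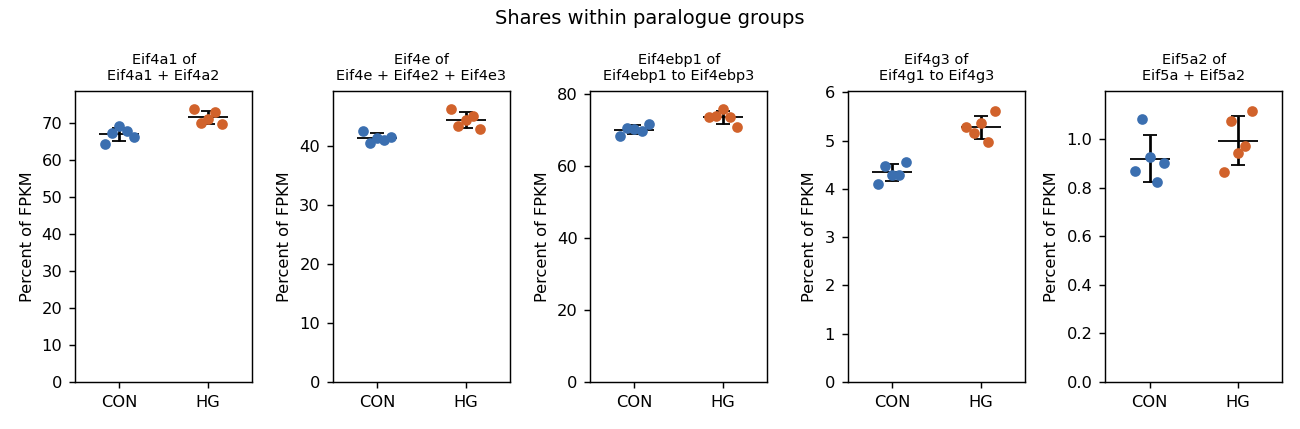
Percent of the summed FPKM of each paralogue group held by Eif4a1, Eif4e, Eif4ebp1, Eif4g3 and Eif5a2 in each of 5 CON and 5 HG libraries, with axes from 0; points are libraries and bars mean ± SD. The shares of Eif4a1, Eif4e and Eif4g3 were higher in all HG libraries (for Eif4g3, 4.96% or more against 4.55% or less), and those of Eif4ebp1 and Eif5a2 overlapped.

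Genes for eIF2, the carrier of the initiator tRNA, were higher for the alpha and beta subunits. Eif2s1 encodes the alpha subunit, on which stress kinases act, and read 67.0, 69.1, 66.1, 60.0 and 60.3 FPKM in CON and 77.0, 67.8, 79.0, 81.2 and 84.0 in HG. Only HG library 2 fell within the CON range, and the log2 fold change was 0.27 (SE 0.0601, limma adjusted p 0.00385). Eif2s2, the beta subunit gene, had 88.1, 91.0, 87.5, 78.9 and 85.2 FPKM in CON and 104, 93.9, 105, 103 and 107 in HG. It was higher without overlap, by 0.25 on the log2 scale (SE 0.0462, limma adjusted p 0.00115). Eif2a, which codes for a separate tRNA carrier despite its name, rose by 0.19 (limma adjusted p 0.0140) and lost the call with median-of-ratios factors. Eif2d, a further carrier, was at 19.0 ± 1.2 and 19.6 ± 0.71 FPKM and was not called.

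Eif2s3, the gamma subunit gene on the X chromosome, varied far more than its partners and was looked at after its values were seen. It measured 35.5, 60.8, 54.8, 35.8 and 56.9 FPKM in CON and 39.5, 62.0, 39.2, 65.8 and 64.3 in HG. The values fell into a low set and a high set that each held libraries of both groups. CON libraries 1 and 4 and HG libraries 1 and 3, with 35.5 to 39.5 FPKM, were those with Eif2s3y at 31.8 to 35.0 FPKM. The other 6 libraries had 54.8 to 65.8 FPKM of Eif2s3 and at most 0.0931 FPKM of Eif2s3y, 3 reads or fewer. Eif1ax, another member known to be X-linked, did not separate this way, with 44.7 to 51.0 FPKM in the former 4 libraries and 44.1 to 54.1 in the other 6.

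This spread set what the comparison of Eif2s3 could show. As deposited, its log2 change of 0.15 had a standard error of 0.197 and was not called (limma adjusted p 0.577). With the summed level of Y chromosome genes as a covariate, it was 0.18 with a standard error of 0.0382 and was called. Its limma adjusted p was then 0.00335, with 0.00335 to 0.880 over the 21 alternatives. That summed level includes Eif2s3y, at 32.1 FPKM in CON library 1 where the total was 38.8. The covariate is thus not independent of this gene pair. The sum of Eif2s3 and Eif2s3y was 61.6 ± 5.90 FPKM in CON and 67.8 ± 5.28 in HG, with overlapping groups (two-sided exact permutation test, p = 0.135). The pair of genes is similar in sequence, and how reads were divided between them was not tested. Both groups held 2 libraries with Eif2s3y, so that the group comparison of the other members was balanced in this respect.

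**Figure D5:**
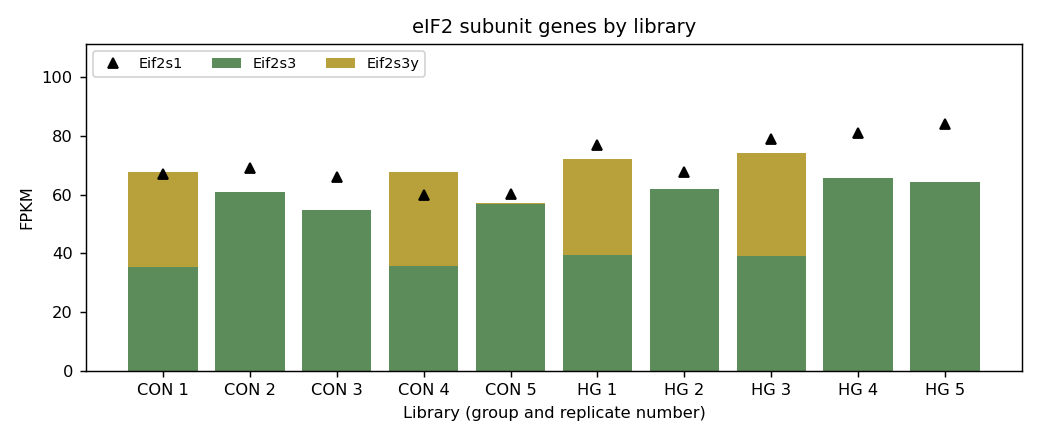
FPKM of Eif2s3 (green) and Eif2s3y (ochre, stacked) by library, with Eif2s1 as triangles. In the 4 libraries with Eif2s3y (CON 1 and 4, HG 1 and 3), Eif2s3 lay at 35.5 to 39.5 FPKM, against 54.8 to 65.8 in the others, while Eif2s1 showed no such split.

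The 5 subunits of eIF2B, the exchange factor that recharges eIF2, moved in different directions. Eif2b3, the gamma subunit gene, had 11.1, 11.0, 11.9, 11.8 and 11.6 FPKM in CON and 14.3, 12.8, 12.6, 13 and 13.1 in HG. It rose by 0.20 on the log2 scale without overlap (SE 0.0473, limma adjusted p 0.00587), and the call was lost with median-of-ratios factors. Eif2b4, the delta subunit gene, had 24.7, 26.0, 24, 25 and 24.4 FPKM in CON and 23.9, 21.9, 20.6, 22.6 and 23.6 in HG. It fell, with a log2 change of -0.14 (limma adjusted p 0.0273) that was -0.23 with median-of-ratios factors, and the groups did not overlap by a narrow margin. That call was lost without CON library 2 or 4 or HG library 2 or 3. It was also lost with a replicate block and with hemoglobin genes left out. The limma adjusted p of Eif2b4 went up to 0.0668 over the alternatives. The other 3 subunits, Eif2b1, Eif2b2 and Eif2b5, had log2 fold changes of 0.06, 0.07 and 0.05 and were not called.

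Of the 5 genes for eIF1 and eIF1A and their partner, which govern the choice of the start codon, 1 was called. Eif1ax rose from 46.2 ± 2.17 to 51.3 ± 2.26 FPKM (limma adjusted p 0.0130), and not with median-of-ratios factors. Eif1, the most abundant of them, read 252.1, 242, 231, 226 and 225 FPKM in CON and 242, 249.8, 244, 274 and 249 in HG. Its groups overlapped and it was not called (limma adjusted p 0.0985). With quantile normalization Eif1 was called higher (log2 fold change 0.16, limma adjusted p 0.00629), while the call of Eif1ax was lost (limma adjusted p 0.0551). Eif1b, Eif1a and Eif1ad had log2 fold changes of 0.00, 0.11 and 0.07, none called.

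The 13 eIF3 subunits, the scaffold on the small ribosomal subunit, moved little. Their log2 fold changes ran from -0.08 (Eif3f) to 0.23 (Eif3a), and 5 were called, all higher (38.5%, background 28.4%). With median-of-ratios factors 1 was higher (7.69%, background 15.6%) and 2 were lower (15.4%, background 17.5%). Eif3a, the largest subunit, had 83.7, 86.8, 87.2, 86.9 and 88.9 FPKM in CON and 98.8, 93.6, 104, 105 and 108 in HG. It rose without overlap (SE 0.0400, limma adjusted p 8.07e-04) and was the subunit called under both scalings. The other 4 that were called, Eif3b, Eif3c, Eif3d and Eif3g, rose by 0.09 to 0.12 on the log2 scale, about the shift of all genes. Eif3f and Eif3h were those called lower with median-of-ratios factors, at -0.17 and -0.11, and were not called as deposited. The number of eIF3 genes called went from 5 to 2 without CON library 4 or HG library 4 and to 3 without CON library 1, 2 or 3 or HG library 3.

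For the joining of the subunits, 2 of 3 genes were called higher (66.7%, background 28.4%), and 1 with median-of-ratios factors (33.3%, background 15.6%). Eif5, which triggers GTP hydrolysis on eIF2, had 50.1, 53.3, 52.1, 47.7 and 52.5 FPKM in CON and 61.7, 58.3, 59.9, 61.5 and 62.5 in HG. Every HG value was above every CON value, with a log2 change of 0.25 (SE 0.0380, limma adjusted p 3.21e-04) that was also called with median-of-ratios factors. Eif5b, the joining GTPase, read 18.4, 19.8, 19.0, 18.2 and 18.6 FPKM in CON and 18.9, 20.1, 23.4, 24.6 and 25.6 in HG. HG library 1 lay within the CON range, HG library 2 just above it and the other 3 well above (log2 change 0.25, limma adjusted p 0.0214). It was not called with median-of-ratios factors, with quantile normalization or without HG library 3 or 4. Eif6, which keeps the large subunit from joining too early, was at 48.2 ± 2.29 and 49.1 ± 2.50 FPKM and was not called.

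eIF5A, which helps the ribosome past difficult peptide bonds, was higher from both of its genes. Eif5a had 380.1, 363, 378, 365 and 354 FPKM in CON and 437, 411, 399, 439.9 and 389 in HG. All HG values were above the CON values (log2 fold change 0.17, SE 0.0417, limma adjusted p 0.00616). Eif5a2, a rarer form, was 3.41 ± 0.354 and 4.15 ± 0.321 FPKM (limma adjusted p 0.0192). Both were called higher as deposited, as were 28.4% of all tested genes, and neither with median-of-ratios factors (background 15.6%).

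Across all 21 alternatives of the fit, 12 members were called each time. Those that rose were Eef1b2, Eif2s1, Eif2s2, Eif3a, Eif4a1, Eif4a3, Eif4b, Eif4ebp1, Eif4g3 and Eif5, and those that fell were Eef1a2 and Eef2k. Leaving out any 1 of the 10 libraries kept 20 higher and 2 lower calls. How many of all tested genes kept their calls in the same way was not counted. These numbers therefore do not set the members apart from the other genes.

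Upstream windows were found for 56 of the 63 members by gene ID in RefSeq. The letters TATAA, as in a TATA box, stood on either strand in 9 of 56 windows (16.1%), among them those of Eef1a1, Eef2, Eef1b2, Eif1, Eif4a1 and Eif4a2. They stood in 25.6% of the windows of all 27457 genes and in 14.8% of those of 11733 tested genes. CACGTG, the letters of an E-box that Myc and its relatives bind, was in 11 of 56 (19.6%), against 6.18% and 8.28%. TTCCGG, the core of sites for ETS factors, was in 27 of 56 (48.2%), against 14.1% and 23.1%. Of the 24 matched members called higher, 10 held TTCCGG, and of the 29 not called, 17 did. For CACGTG these numbers were 5 of 24 and 5 of 29, and for TATAA 5 of 24 and 4 of 29. The motifs were searched on both strands, do not overlap each other in sequence, and are read here only as letters present in a window.

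Other genes of protein synthesis were compared in lists drawn up for this purpose. The kinases of eIF2 and their targets were counted over 11 genes, of which 6 were called higher and 1 lower, and 4 and 1 with median-of-ratios factors. The share called higher was 54.5% (background 28.4%), and 36.4% with median-of-ratios factors (background 15.6%). Impact, an inhibitor of the amino acid sensor Eif2ak4, rose most, from 8.87 ± 1.05 to 12.7 ± 1.07 FPKM (log2 fold change 0.51, limma adjusted p 4.33e-04). Ddit3, a stress transcription factor gene, fell from 17.2 ± 1.25 to 13.6 ± 2.20 FPKM (-0.35 on the log2 scale, limma adjusted p 0.0126). The others called higher were Atf4, Eif2ak2, Eif2ak4, Ppp1r15a and Ppp1r15b, named here to complete the count. Trib3 and Atf5, also targets of Atf4, were not called.

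Of 15 genes that signal through mTORC1 and MNK kinases to eIF4E, 5 were called, all higher, and 2 of them with median-of-ratios factors. These were 33.3% and 13.3%, near the 28.4% and 15.6% of all tested genes called higher. Pdcd4, which holds the helicase eIF4A in check, rose from 19.6 ± 1.70 to 23.5 ± 1.57 FPKM (log2 fold change 0.27, limma adjusted p 0.00615). Rheb, the activator of mTORC1, rose from 58.5 ± 2.11 to 63.7 ± 1.40 FPKM (log2 fold change 0.12, limma adjusted p 0.0137), a call lost with median-of-ratios factors. Mtor itself was at 13.9 ± 0.839 and 14.4 ± 0.287 FPKM and was not called.

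Among 12 partners of the cap and the poly(A) tail, 5 were called higher (41.7%, background 28.4%) and 1 lower, against 2 (16.7%, background 15.6%) and 1 with median-of-ratios factors. Ddx3x, a helicase for structured leaders, rose from 76.4 ± 8.68 to 101 ± 11.0 FPKM (log2 fold change 0.41, limma adjusted p 0.00274). In CON its lowest values, 66.2 and 68.5 FPKM, were those of libraries 1 and 4, which held Eif2s3y. In HG they were 95.9 and 86.3 FPKM, in libraries 1 and 3, which held it too. Pabpc4, a poly(A)-binding protein gene, fell from 159 ± 3.66 to 147 ± 6.36 FPKM (limma adjusted p 0.0277), a call that was lost without CON library 1, 3 or 4 or HG library 3 or 5. The call was also lost with a replicate block (limma adjusted p 0.0711). Pabpc1, the main form, was not called.

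Termination and recycling factors numbered 6, with 2 called higher under both scalings (33.3%, background 28.4% as deposited and 15.6% with median-of-ratios factors). Gspt2, a release factor gene, read 0.613, 0.456, 0.427, 0.566 and 0.448 FPKM in CON and 1.2, 0.992, 1.23, 1.14 and 1.28 in HG. It was the other gene of these lists above the DEG threshold (log2 fold change 1.08, limma adjusted p 5.38e-05), at a level far below its near-identical relative Gspt1 with 82.0 ± 1.38 and 85.3 ± 2.45 FPKM, and the division of reads between them was not tested. At this low level the size of the change followed the pseudocount, with 0.53 for a pseudocount of 1 and 1.22 for 0.01, called in both, so that it lay under the DEG threshold with the former. Pelo, which rescues stalled ribosomes, rose from 28.6 ± 1.14 to 34.3 ± 2.01 FPKM (limma adjusted p 9.55e-04).

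Of 8 tested enzymes that make hypusine on eIF5A or diphthamide on eEF2, 2 were called higher, or 25%, under the background of 28.4%. With median-of-ratios factors 1 was higher and 1, Dph3, was lower (-0.22 on the log2 scale, limma adjusted p 0.00803). Dph1 rose from 9.64 ± 1.02 to 12.2 ± 0.872 FPKM (limma adjusted p 0.00466). Dhps, which starts hypusine synthesis, rose from 38.3 ± 1.21 to 42.9 ± 1.39 FPKM (limma adjusted p 0.00330), a call lost with median-of-ratios factors.

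Of 9 tested factors of mitochondrial translation, 3 were called, all lower, with FPKM as deposited and with median-of-ratios or quantile scaling. These were 33.3%, where 11.8%, 17.5% and 15.9% of all tested genes were called lower, and the log2 fold changes of the 9 ran from -0.27 to 0.12 with 3 above 0. Tufm, the mitochondrial counterpart of eEF1A, had 158, 152, 156, 159 and 155 FPKM in CON and 136, 143, 135, 140.3 and 129 in HG. It fell without overlap (log2 fold change -0.19, limma adjusted p 8.55e-04). Mrrf, for ribosome recycling, fell from 9.15 ± 0.627 to 8.0 ± 0.382 FPKM and Mtrf1, for release, from 8.10 ± 0.631 to 6.73 ± 0.785 FPKM (limma adjusted p 0.0206 and 0.0247). Without CON library 4, 1 of these 9 was called, as the calls of Mrrf and Mtrf1 were lost. That of Mtrf1 was also lost with a replicate block (limma adjusted p 0.0533). Whether the mitochondrial list differed from the cytosolic members was not tested.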

How the data were processed

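RNA of fetal hearts (5 CON and 5 HG libraries, grouped by sample title) was made into stranded mRNA libraries by the submitters. The submitters' processing notes name fastp, HISAT2, HTSeq, R 3.2.0 and the build mRatBN7.2. The authors deposited FPKM per gene, and 0 per-sample columns were unused. Reads were recovered as whole multiples of the FPKM step in 100% of genes (tolerance 0.02 reads).

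After a filter at a mean of 0.1 FPKM, log2(FPKM + 0.1) was fitted by group with limma 3.58.1 (trend, no covariate; R 4.3.3), with Benjamini-Hochberg adjustment over all genes. Python 3.11.15, numpy 2.4.6, pandas 2.3.3 and matplotlib 3.10.9 served for the rest. Shares were compared with exact permutation tests over libraries. The fit was tested on simulated data. Choices varied were the pseudocount (0.01 and 1), the filter (none, or 1 FPKM), library scaling (median-of-ratios, quantile, hemoglobin genes left out), the variance trend, a replicate block, a covariate of Y chromosome genes and leaving out each library. Added after seeing the data were voom on recovered reads and the sum of Eif2s3 and Eif2s3y.

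The members and lists were chosen with earlier results of these data known. Named genes were Eef1a1 and Eef1a2, up to 12 called members in each direction with the smallest adjusted p, the 6 most abundant members, DEGs, the paralogues of each share, members at the edge of the filter, and the extreme called genes of each pathway list. Other genes were named after their values were seen, to complete a count or a role. Promoters are RefSeq windows on GRCr8, matched by gene ID; no coordinates were moved between builds.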

Additional observations from a re-analysis of the deposited data

Results flagged for a closer look

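In 5 of 90 groups of 5 values (FPKM of named members and shares), a library lay far from the other 4, with a gap to its nearest neighbour over 0.71 of the whole range; chance alone gives about 1 in 20. Eef1a1 in CON library 2 was the lowest of its group at 2787 FPKM, against 3170 to 3302 in the other 4. Eif1 in HG library 4 was the highest at 274 FPKM, against 242 to 249.8. Eif4e3 in HG library 1 was the lowest at 6.23 FPKM, against 7.15 to 7.38. The share of Eif4ebp2 among the Eif4ebp genes was highest in CON library 1 at 25.1%, against 23.1% to 23.6%. The share of Eif4ebp3 was lowest in CON library 5 at 5.26%, against 6.48% to 6.70%. These libraries differ from case to case. Why they stood apart was not tested.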

How the results depend on the processing

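With median-of-ratios factors, 10 members were called higher and 6 lower, and 2271 of all genes were higher and 2551 lower. By role, the calls in either direction were 0 for eIF1 and eIF1A, 1 for eIF2B, 3 for eIF3, 1 for the eIF4E-binding repressors, 1 for subunit joining, 0 for eIF5A and 0 for the methyltransferases, and in the lists 2 for mTORC1 signalling and 3 for cap and poly(A) partners. With quantile normalization 2615 of all genes were higher, 0 members were DEGs, and the calls were 1 for eIF2B, 1 for the repressors, 1 for subunit joining, 1 for eIF5A, 4 for eEF1, 0 for the methyltransferases, 4 for the eIF2 stress list and 3 for mTORC1 signalling. With hemoglobin genes left out, they were 2 for eIF1 and eIF1A, 1 for eIF2B and 4 for termination. With voom on recovered reads, 25 members were higher and 3 lower, and 4234 and 1727 of all genes. The fit with no trend gave 2 for eIF3, and the filter of 1 FPKM gave 1 for termination.

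Replicate numbers did not pair the libraries: deviations of same-numbered libraries correlated at -0.13 to 0.11, above 0.1 in 1 of 5 pairs, and 0 CON libraries correlated best with their own number. With a replicate block, 22 members were higher and 2 lower, and calls were 1 for eIF2B, 2 for eIF3 and 3 for cap and poly(A) partners. The paired sign-flip test, whose smallest p is 0.0625, gave this exact p for the shares of Eef1a2 (-3.72 points), Eif4a1 (4.56), Eif4e (3.06), Eif4e2 (-2.52), Eif4ebp2 (-2.80) and Eif4g3 (0.935), and 0.125 for Eif4ebp1 (3.44), so that it cannot pass 0.05.

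Leaving out 1 library in turn gave 22 to 25 members higher, 2 to 3 lower and 0 to 1 DEG (0 without HG library 5), with 1 to 2 calls for eIF1 and eIF1A, 1 to 2 for eIF2B, 2 to 5 for eIF3, 1 to 2 for subunit joining, 1 to 3 for the methyltransferases and 1 to 4 for the mitochondrial list. The Eif4ebp3 share moved from -1.07 (HG library 5 left out, exact permutation p = 0.0476) to -0.397 points and that of Eif4g2 from -0.0606 to 0.965.

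Of the 34 members that were not called, 19 turned sign with median-of-ratios factors, 14 with quantile normalization, 4 without hemoglobin genes and 1 to 4 without 1 library, and 0 of the 29 called ones did. Among the genes named by rule, those that turned with median-of-ratios factors were Eef1akmt4 (-0.0091), Eef1g (-0.058), Eef2 (-0.066), Eif1b (-0.086), Eif4ebp2 (-0.065), Eif4ebp3 (-0.050) and Eif4g1 (-0.071). With quantile normalization they were Eef1a1 (0.15), Eef1akmt4 (-0.010), Eif1b (-0.048), Eif4a2 (0.0020), Eif4ebp2 (-0.017), Eif4ebp3 (-0.043) and Eif4g1 (-0.0030), and without hemoglobin genes Eif4a2 (0.0022) and Eif4e2 (0.0069). Over the libraries left out, the ranges were -0.088 to 0.0031 for Eef1a1, -0.026 to 0.22 for Eef1akmt3, -0.026 to 0.20 for Eef1akmt4, -0.014 to 0.071 for Eef2, -0.032 to 0.035 for Eif1b, -0.059 to 0.014 for Eif4a2, -0.036 to 0.00058 for Eif4e2, -0.088 to 0.0078 for Eif4e3, -0.023 to 0.094 for Eif4ebp3 and -0.0068 to 0.042 for Eif4g1. The cause was not tested, and scaling of libraries is the choice on which the counts rest most. Depth limits Eef1akmt3, at 8.5 reads per library, and the next lowest member had 24.5.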
